A study of Mus musculus with 8 samples.

Results

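The lungs of mice given single-walled carbon nanotubes (SWCNT) were compared with the lungs of mice given the solvent alone, 1 day after instillation. The comparison rested on 4 of the 8 arrays of the study. Both groups were male ICR mice, an outbred stock, 5 to 6 weeks old, anesthetized with pentobarbital and instilled into a trachea exposed through a cut in the neck skin. The PF68 day 1 group received Pluronic F-68 alone, a nonionic dispersing agent abbreviated PF68. The SWCNT day 1 group received 0.5 mg of tubes per mouse in 50 µl of 0.1% PF68. No uninstilled mouse was among the groups, so surgery, anesthesia and surfactant were common to both sides of every difference below. The other 4 arrays, PF68 day 7 and SWCNT day 7, lent their spread to the test and are given as side values. Each group had 2 arrays, described in the labels as biological replicates. Since no animal is named for an array, the error behind every p-value is array-to-array spread, whose source may be technical.

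Total RNA from lobe 1 of the right lung was measured on Affymetrix expression arrays. Among probe sets listed with a single gene symbol, the brightest on average across the 8 arrays stood for its gene, which gave 18191 genes. Of these, 13815 were at or above their array's median on 2 or more arrays and were tested, and 4376 did not and were left untested. A value is the authors' deposited signal, read as log2, and the array median was -0.628 on every array. Values near or below that median are dim, and a fold from a dim value is only as firm as the background allows. A difference is SWCNT minus PF68 on that scale, followed by its standard error. A gene was called higher or lower when limma's moderated test gave an adjusted p (Benjamini-Hochberg over all 13815 genes) under 0.05.

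Type I and type II interferons are secreted proteins that act through paired cell-surface receptors, Janus kinases and STAT and IRF transcription factors. They switch on a large set of genes for sensing and blocking viruses, for chemokines that call in T cells, and for peptide presentation on MHC class I. In the lung these genes rise during infection and, more weakly, in other kinds of injury. Muscle, by contrast, is scarce in lung tissue. Smooth muscle wraps airways and vessels, cardiac muscle sleeves the pulmonary veins of mice, and skeletal muscle lies outside the lung, in the chest wall, diaphragm, neck and, in mice, the oesophagus. Stratified squamous epithelium covers the oesophagus, mouth and skin and is not a normal lining of the distal lung.

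The lobe carried its tissue's markers in both groups. None of the 7 lung markers was called by limma, with 1 at an unadjusted p under 0.05, and their mean level lay between 6.53 and 6.58 on the PF68 arrays and between 6.51 and 6.55 on the SWCNT arrays. Arrays of the same group correlated at r = 0.940 (PF68) and 0.935 (SWCNT) over all probe sets, and arrays of different treatment on day 1 at 0.924 to 0.931. A sign of RNA integrity moved with treatment: the beta-actin probe sets read 2.04 and 2.01 higher at the 3′ than at the 5′ end on the PF68 arrays, against 1.31 and 1.36 on the SWCNT arrays. The part of this gap in the differences below was not tested. Signals of the bacterial hybridization spikes were 0.202 higher on the SWCNT than on the PF68 arrays.

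On day 1, 300 genes were called, 2.17% of those tested. SWCNT lungs were higher for 129 genes (0.934%) and lower for 171 (1.24%). The 4 gene families set apart held the extremes. Of the 20 called genes with the largest rises, 11 were muscle genes, 7 squamous and 2 adipocyte genes, and of the 20 with the largest falls, 18 were interferon genes. Outside these families 13408 genes remained, of which 81 were higher (0.604%) and 113 lower (0.843%), and their called differences ran from -2.27 to 2.71. Arrays of the 2 groups did not overlap for 53.2% of all genes (24.6% higher and 28.6% lower with SWCNT), so non-overlap alone marks little here. Scaling the arrays to the hybridization spikes shifted the median of all genes to -0.223, from -0.021, and then 91 genes were higher and 521 lower, so that 14.9% of calls were rises in place of 43%. Counts also fell steeply with fewer arrays: 58 genes were called from the 4 day 1 arrays alone, 30 to 35 when any one day 1 array was left out, and 135 to 189 when any one day 7 array was left out. Leaving out a day 7 array leaves a day 1 difference unchanged, so the ranges below come from single day 1 arrays. Apart from Krtdap, they are given for genes that stayed called in all 8 leave-one-out fits. They do not stand for other genes, and the difference of Krtdap ran from 5.25 to 7.86. Over these 8 fits the difference ran from -4.33 to -3.95 for Ifit1, -2.68 to -2.56 for Rsad2 and -3.29 to -3.14 for Cmpk2. It ran from -2.95 to -2.9 for Igtp and -2.54 to -2.39 for Irf7. Outside the interferon genes it ran from 5.01 to 5.26 for Acta1, 4.25 to 4.6 for Nppa and 3.33 to 3.49 for Car3. For Tnnt3 it ran from 4.42 to 4.71, for Mt4 from 4.55 to 4.88 and for Serpinb12 from 2.7 to 2.75. Krtdap, Tnnt3, Mt4 and Serpinb12 had entered the test only through the SWCNT day 1 arrays, by a filter set on all 8 arrays before these fits.

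**Figure D1:**
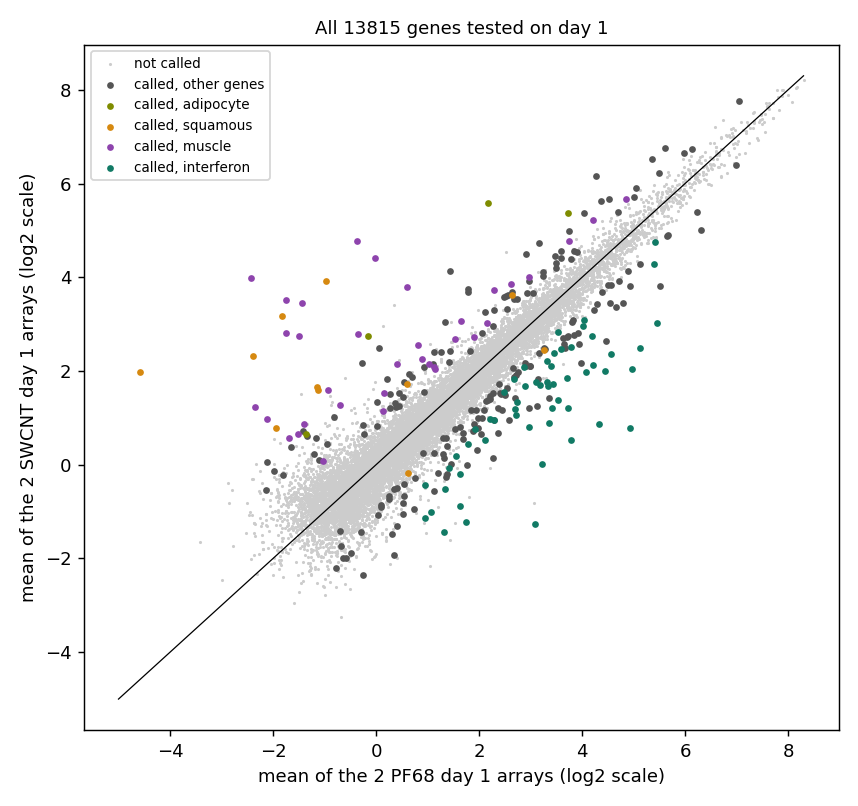
Mean value of each of the 13815 genes on the 2 PF68 day 1 arrays (x axis, log2 scale) against the 2 SWCNT day 1 arrays (y axis, log2 scale); the line marks equality and coloured points are the 300 called genes. Most called squamous genes and 12 of the 35 called muscle genes rise from PF68 values under the array median, while the 56 interferon genes that were called lie below the line at middle and high PF68 values.

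Interferon genes were the largest group that fell. Of 158 members of the 6 interferon lists tested, 56 were lower in SWCNT lungs and 0 higher, against 1.24% lower among all genes. Of the listed interferon genes, 209 were written, 169 measured and 158 tested, 1 of these only through the SWCNT day 1 arrays and 3 only through the PF68 day 1 arrays. Of the 158 differences 140 were below 0, and their median was -0.78 against -0.02 for all genes. The count was 21 from the day 1 arrays alone, 13 to 18 without any one day 1 array, and 36 to 49 without any one day 7 array.

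The ligands of the pathway gave almost no signal to test. Ifnb1, Ifna4 and Ifng, which encode interferon beta, an interferon alpha and interferon gamma, did not reach the array median on 2 arrays. Their receptors were measured on every array and none was called. Ifnar1, one chain of the type I receptor, read 1.57 and 1.77 on the PF68 arrays and 1.5 and 1.43 on the SWCNT arrays, a difference of -0.20 ± 0.17 (adjusted p = 0.591). Ifngr1, the ligand-binding chain of the interferon gamma receptor, read 2.96 and 3.06 against 3.0 and 2.69, which overlap. Ifnar1 and the other chains of these receptors, Ifnar2 and Ifngr2, were lower without overlap, as were 28.6% of all genes. Ifnar2 differed by -0.44 ± 0.13 (adjusted p = 0.159), with further probe sets from -0.76 to 0.08. Ifngr2 differed by -0.45 ± 0.26 (adjusted p = 0.423). Further down the pathway, Stat2, a partner of the type I transcription complex, differed by -0.98 ± 0.34 and Irf9, its DNA-binding partner, by -0.67 ± 0.20, neither of which was called (adjusted p = 0.208 and 0.161). Irf3, the factor that starts interferon transcription and is itself not induced by it, differed by -0.05 ± 0.25.

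Of 28 ligand, receptor and signalling genes tested, 3 fell, and all 3 are themselves interferon-induced. Irf7, the factor that amplifies type I interferon production, read 3.29 and 3.44 on the PF68 arrays and 0.88 and 0.91 on the SWCNT arrays. That is a difference of -2.47 ± 0.13, or 5.53-fold, with an adjusted p of 0.00184. On day 7 Irf7 read 1.14 and 1.25 with PF68 and 0.76 and 0.99 with SWCNT, so the PF68 day 1 arrays were the ones that stood apart. Usp18, a protease that removes ISG15 from proteins and blocks the type I receptor, read 3.55 and 3.50 against 1.49 and 1.26 (difference -2.15 ± 0.14, adjusted p = 0.00357). Irf1, a factor induced chiefly by interferon gamma, read 3.97 and 4.10 against 2.99 and 3.18 (difference -0.95 ± 0.13, adjusted p = 0.0296). For Irf1 the day 7 PF68 arrays, at 4.01 and 3.88, were as high as those of day 1 with PF68, and it was the SWCNT day 1 arrays that lay below the rest.

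Cytosolic sensors of viral nucleic acid fell in 9 of 19 cases, and all 19 differences were below 0. Dhx58 (LGP2), a helicase that tunes RNA sensing, read 1.39 and 1.27 on the PF68 arrays and -1.41 and -1.44 on the SWCNT arrays, a difference of -2.76 ± 0.12 (6.76-fold, adjusted p = 0.00105). Its SWCNT values were below the array median and below both day 7 groups, which read between -0.28 and -0.08. Ifih1 (MDA5), the sensor of long double-stranded RNA, read 3.26 and 3.10 against 1.63 and 1.78 (difference -1.48 ± 0.12). Ddx58 (RIG-I), the sensor of short 5′-triphosphate RNA, differed by -1.39 ± 0.20 (adjusted p = 0.0353). Nlrc5, the activator of MHC class I transcription, differed by -1.84 ± 0.13, and Zbp1, a sensor of Z-form nucleic acid, by -1.38 ± 0.19.

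Antiviral effectors made up the bulk of the falls, with 27 of 72 lower and a median difference of -0.95. Ifit1, which binds viral RNA lacking the host's cap methylation, read 4.84 and 5.01 on the PF68 arrays and 0.97 and 0.59 on the SWCNT arrays. The difference was -4.14 ± 0.17, a 17.7-fold fall (adjusted p = 0.00105). Day 7 values of Ifit1 lay between those of the day 1 groups, at 1.87 and 2.08 with PF68 and 2.01 and 1.93 with SWCNT. Its relatives Ifit2 and Ifit3 differed by -3.46 ± 0.27 and -2.43 ± 0.14. Ifit3 read 5.52 and 5.39 with PF68 against 3.16 and 2.88 with SWCNT, and the day 7 arrays read from 2.36 to 3.02. Rsad2 (viperin), which makes a chain-terminating nucleotide, read 5.06 and 5.18 against 2.49 and 2.51 (difference -2.62 ± 0.11, 6.13-fold). Cmpk2, its genomic neighbour and the kinase that supplies its substrate, read 3.31 and 3.15 against -0.05 and 0.08 (difference -3.21 ± 0.13, 9.26-fold). Bst2 (tetherin), which holds budding virus at the cell surface, read 3.53 and 3.34 against 1.73 and 1.72. Mx1, a GTPase against influenza virus, read 1.38 and 1.69 against -0.96 and -1.53, a difference of -2.78 ± 0.81 that was not called (adjusted p = 0.157).

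Interferon-induced GTPases attack the vacuoles of intracellular parasites. All 10 tested were lower, by 1.28 to 3.26, with a median of -2.21. Of the listed GTPase genes, 22 were written, 11 measured and 10 tested. Igtp (Irgm3) read 4.96 and 4.97 on the PF68 arrays and 2.01 and 2.07 on the SWCNT arrays, a difference of -2.92 ± 0.12 (7.59-fold, adjusted p = 0.00105). Its day 7 arrays read 2.08 and 2.30 with PF68 and 2.27 and 2.35 with SWCNT, next to the SWCNT day 1 values. Gbp6, a guanylate-binding protein, read 3.78 and 3.80 against 0.41 and 0.65 (difference -3.26 ± 0.15, 9.59-fold). On day 7 Gbp6 read between 1.84 and 2.23, above the SWCNT day 1 arrays. Gbp2 fell by 2.19, Irgm1 by 2.22, Irgm2 by 2.52 and Iigp1 by 2.44. The 10 genes sit in families of near-identical copies, so probe sets may share signal between neighbours.

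Chemokines driven by interferon were lower in 3 of 11 cases. Cxcl10 (IP-10), which draws activated T and NK cells through CXCR3, read 3.13 and 3.05 on the PF68 arrays and -1.64 and -0.90 on the SWCNT arrays, a difference of -4.36 ± 0.30 (20.6-fold, adjusted p = 0.00476). It was below the array median on all 6 other arrays, and entered the test through the PF68 day 1 arrays alone. Ccl5 (RANTES), made by T cells and macrophages, read 3.30 and 3.36 against 1.90 and 1.46 (difference -1.65 ± 0.17). Ccl8, an attractant of monocytes and T cells, read 1.98 and 1.87 against 0.80 and 0.71 (difference -1.16 ± 0.14). On day 7 Ccl8 was higher with SWCNT, by 0.99. Cxcl9, another CXCR3 ligand, read -0.73 and -0.57 against -1.30 and -0.95 with the probe set used, while a dimmer probe set of the gene differed by -2.46.

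Of 19 MHC class I genes tested, 5 were lower: the peptide transporters Tap1 and Tap2 and the immunoproteasome subunits Psmb8, Psmb9 and Psmb10. Tap1 read 2.22 and 2.38 against 0.96 and 0.93 (difference -1.35 ± 0.16, adjusted p = 0.0206), and Tap2 differed by -0.77 ± 0.10. Psmb9 read 3.26 and 3.52 against 1.98 and 2.23 (difference -1.28 ± 0.15), and Psmb8 differed by -1.07 ± 0.11. Parts of the surface complex were lower without overlap but were not called, and the roles were not compared by a test. B2m, its light chain, read 7.32 and 7.48 against 6.89 and 7.04 (difference -0.43 ± 0.12, adjusted p = 0.154), and H2-K1, a heavy chain, differed by -0.42 ± 0.10.

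**Figure D2:**
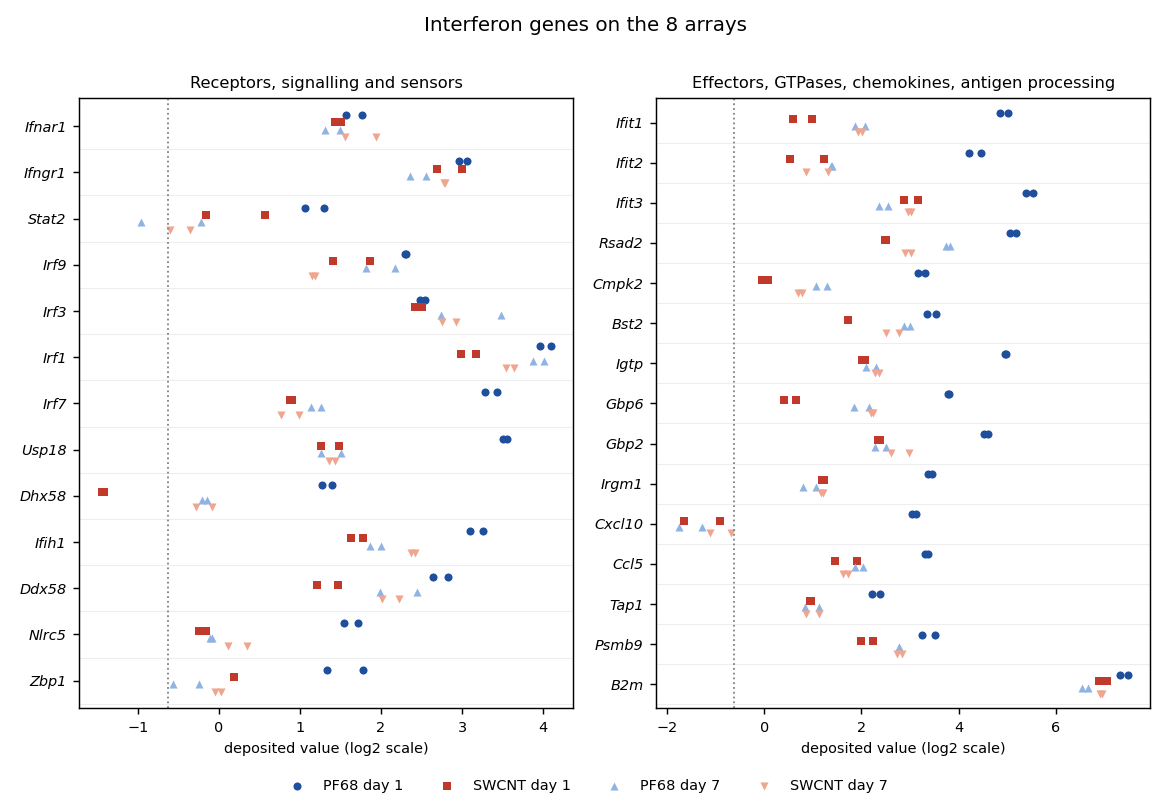
Deposited values (x axis, log2 scale) of interferon genes on each of the 8 arrays, with a marker per array and a colour per group; the dotted line is the array median of -0.628. The PF68 day 1 arrays lie to the right of all others for Ifit1, Igtp, Cxcl10 and most effectors, while the receptor chains drawn, Ifnar1 and Ifngr1, show no such gap. The chains Ifnar2 and Ifngr2 are not drawn.

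The day 7 arrays, which have PF68 controls of their own, are set beside the 2 day 1 groups. Their beta-actin probe sets read 2.94 to 3.29 higher at the 3′ than at the 5′ end, against 1.31 to 2.04 on the day 1 arrays. The part of this gap in the values below was not tested. Of the 56 interferon genes called lower, 52 had both PF68 day 1 arrays above all 6 other arrays. In 28 the SWCNT day 1 arrays were also below all 6 others. Measured against the PF68 day 7 mean, the median of the 56 genes was 1.39 for PF68 day 1, -0.28 for SWCNT day 1 and 0.01 for SWCNT day 7. The high values of these genes thus belonged to the solvent group of day 1, and the SWCNT day 1 values lay near or somewhat under those of day 7. Among all 13815 genes, both PF68 day 1 arrays were above all others for 925. Among the 113 genes called lower on day 1 outside the families set apart, this order held for 39. The difference of the SWCNT effect between the days was called for 38 of the 56, for 42 of those 113 and for 334 of all genes (2.42%). That term contains the day 1 difference by which the 56 and the 113 were chosen. A call as lower also places PF68 day 1 above SWCNT day 1 on average. The counts among all genes are therefore no fair measure for the 56, and the 56 and the 113 were not compared by a test.

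Markers of cells that make interferon are given beside these values. Of 7 plasmacytoid dendritic cell markers tested, 2 were called, Irf7 and Bst2, which are also interferon genes. The mean level of the 9 measured markers was 1.32 to 1.34 on the PF68 arrays and 0.66 to 0.69 on the SWCNT arrays. Irf7, Bst2 and the dim, untested Pacsin1 carried that gap, and Tcf4 and Cox6a2 were not lower on average. T and NK cell genes had a median difference of -0.61 over 33 genes, with 2 called, against 2.17% of all genes. In whole-lobe RNA, fewer cells of a type and less RNA per cell cannot be told apart, and the part of these cells in the interferon differences was not tested.

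Promoter sequence was searched for the interferon-stimulated response element, the site bound by STAT and IRF factors, written here as GAAA, any 2 bases, then GAAA, on either strand. RefSeq windows of 300 bases (assembly GRCm38.p6, 250 before to 50 after a start site) matched 40 of the 56 interferon genes called lower, and 15 of these 40 (37.5%) held the motif. Of 82 matched interferon genes that were not called, 24 (29.3%) held it, and so did 3.55% of the 11103 matched genes tested. Among 89 matched genes called lower outside the 4 families, 8 (8.99%) held it. A match is a string of letters and says nothing of binding. The 250 bases before the start are shown for 6 of the genes described above, because they carry the motif next to some of the largest falls; bases are 5′ to 3′ on the gene's strand and the motif, on either strand, is in capitals. Their positions are chr19:34640639-34640888 (plus strand) for Ifit1, chr19:34583279-34583528 (plus) for Ifit3, chr5:92348890-92349139 (minus) for Cxcl10, chr12:26456453-26456702 (minus) for Rsad2, chr11:58199306-58199555 (plus) for Igtp and chr3:142620413-142620662 (plus) for Gbp2.
Ifit1: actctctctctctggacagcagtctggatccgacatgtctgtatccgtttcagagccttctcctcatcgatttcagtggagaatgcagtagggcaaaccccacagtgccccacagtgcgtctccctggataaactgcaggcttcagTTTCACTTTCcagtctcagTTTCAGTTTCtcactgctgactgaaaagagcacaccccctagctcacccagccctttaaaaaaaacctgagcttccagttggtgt
Ifit3: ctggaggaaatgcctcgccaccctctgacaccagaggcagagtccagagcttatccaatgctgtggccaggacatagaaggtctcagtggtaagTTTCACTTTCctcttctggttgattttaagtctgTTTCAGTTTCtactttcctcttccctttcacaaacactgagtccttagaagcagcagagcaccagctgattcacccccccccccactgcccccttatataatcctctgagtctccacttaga
Cxcl10: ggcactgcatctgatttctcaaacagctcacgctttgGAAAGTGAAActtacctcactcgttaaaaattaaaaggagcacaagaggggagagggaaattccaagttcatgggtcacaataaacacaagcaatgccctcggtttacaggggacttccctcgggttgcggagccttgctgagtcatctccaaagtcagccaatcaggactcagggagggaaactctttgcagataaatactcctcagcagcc
Rsad2: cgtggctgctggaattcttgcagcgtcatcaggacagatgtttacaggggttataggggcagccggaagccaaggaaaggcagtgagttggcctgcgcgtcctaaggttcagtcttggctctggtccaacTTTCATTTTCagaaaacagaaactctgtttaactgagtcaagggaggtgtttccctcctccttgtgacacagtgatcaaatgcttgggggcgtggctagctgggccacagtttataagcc
Igtp: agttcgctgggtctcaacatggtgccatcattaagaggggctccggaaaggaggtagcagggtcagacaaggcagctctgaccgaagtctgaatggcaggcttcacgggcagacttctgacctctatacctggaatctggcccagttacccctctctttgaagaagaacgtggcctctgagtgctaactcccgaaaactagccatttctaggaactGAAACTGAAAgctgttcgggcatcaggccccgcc
Gbp2: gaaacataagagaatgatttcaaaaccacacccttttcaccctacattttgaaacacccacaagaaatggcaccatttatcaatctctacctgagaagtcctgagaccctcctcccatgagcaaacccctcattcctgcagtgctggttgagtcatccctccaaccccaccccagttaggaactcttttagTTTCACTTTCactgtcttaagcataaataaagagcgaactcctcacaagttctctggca
Ifit1 and Ifit3 each held 2 copies, at 104 and 85 bases and at 156 and 122 bases before the start. The single copies lay 213 bases before the start in Cxcl10, 120 in Rsad2, 59 in Gbp2 and 34 in Igtp.

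Muscle genes were the largest group that rose. Of 134 members of the 8 muscle lists tested, 35 were higher in SWCNT lungs and 0 lower, against 0.934% higher among all genes, and the median difference was 0.72. Of the listed muscle genes, 175 were written, 166 measured and 134 tested, 14 of these only through the SWCNT day 1 arrays and 0 only through the PF68 day 1 arrays. For 34 of the 35, both SWCNT day 1 arrays were above all 6 other arrays. This order held for 1444 of all 13815 genes and for 111 of the 129 genes called higher. In 12 of the 35, both PF68 values were under the array median. Of the 35, 10 entered the test only through the SWCNT day 1 arrays, including Myh1, Myh8, Myl1, Mylpf, Tnnc2, Tnnt3, Pvalb and Myot. These had to differ to be tested, and the sizes of their differences depend on background values. Their order above the other 6 arrays and their PF68 values under the median follow from the filter. The count was 11 from the day 1 arrays alone, 3 to 6 without any one day 1 array, and 18 to 26 without any one day 7 array.

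Fast skeletal fibre genes had the largest rises. Among 17 thick-filament genes 8 were higher. Myh1, the heavy chain of fast type IIx myosin, read -1.87 and -2.98 on the PF68 arrays and 4.07 and 3.89 on the SWCNT arrays, a difference of 6.41 ± 0.50 (adjusted p = 0.00666). Its PF68 and day 7 arrays were all below the array median, so Myh1 was tested only because of the SWCNT day 1 arrays. Myh2, the type IIa chain, differed by 2.16 ± 0.24 and the perinatal chain Myh8 by 3.59 ± 0.29. Myh4, the type IIb chain, differed by 2.95 ± 0.53 and was not called (adjusted p = 0.0605). Sequence identity between these chains is high, so their probe sets may share signal. The fast light chains followed: Myl1 read -1.80 and -1.08 against 3.43 and 3.46 (difference 4.89 ± 0.52), and Mylpf differed by 4.24 ± 0.38.

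Thin-filament genes were higher in 5 of 11 cases. Acta1, skeletal alpha-actin, read -0.25 and -0.49 on the PF68 arrays and 4.74 and 4.80 on the SWCNT arrays, a difference of 5.13 ± 0.16 (35.1-fold, adjusted p = 0.000848). Day 7 arrays read from -1.29 to -0.85. The calcium-binding troponin of fast fibres, Tnnc2, read -1.49 and -2.0 against 3.49 and 3.53 (difference 5.26 ± 0.46), and fast troponin T, Tnnt3, differed by 4.56 ± 0.24. Fast troponin I, Tnni2, read 0.87 and -0.61 against 3.18 and 2.75, and with that spread the difference of 2.84 ± 0.50 was not called (adjusted p = 0.0564). Tnnc1, the troponin C of slow and cardiac fibres, differed by 0.87 ± 0.13 and was called. The non-muscle actin Actb, at 7.25 and 7.20 against 7.28 and 7.20, overlapped between groups.

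Calcium handling and energy genes rose in part. Atp2a1, the calcium pump of fast fibres, read -0.19 and -0.51 against 2.87 and 2.70 (difference 3.14 ± 0.34, adjusted p = 0.0172). Pvalb, the calcium buffer of fast fibres, read -0.76 and -1.12 against 1.67 and 1.51. Ryr1, the calcium release channel, differed by 0.75 ± 0.34 from dim values and was not called. Of 20 energy genes 6 were higher, and none of the 20 differences was below 0. Ckm, muscle creatine kinase, read 0.26 and 0.94 against 3.82 and 3.78 (difference 3.20 ± 0.26, 9.22-fold), although a dimmer probe set of Ckm differed by -0.40. Eno3, muscle enolase, differed by 1.73 ± 0.15. Mb, myoglobin, read 2.56 and 2.49 against 4.50 and 4.57, and was not called (adjusted p = 0.133), its day 7 PF68 arrays being uneven at 0.73 and 2.47. Among 30 Z disc and costamere genes 6 were higher, including Des (desmin), which differed by 1.25 ± 0.15, and Myot (myotilin), by 3.10 ± 0.49.

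Cardiac genes rose from higher levels. Of 22 tested 7 were higher, and the mean level of the heart markers was above 2 on all 8 arrays, although Nppa and Mybpc3 lay near the array median with PF68 on day 1. Myl7, the atrial regulatory light chain, read 3.69 and 3.79 on the PF68 arrays and 4.74 and 4.80 on the SWCNT arrays (difference 1.03 ± 0.11, 2.04-fold, adjusted p = 0.0148). Myh6, the alpha myosin heavy chain, differed by 1.00 ± 0.12, and Tnnt2, cardiac troponin T, by 1.04 ± 0.16. Actc1, cardiac alpha-actin, differed by 0.94 ± 0.16, at an adjusted p of 0.0505. Nppa encodes the atrial natriuretic peptide, made by atrial muscle. It read -0.19 and 0.16 with PF68 and 4.47 and 4.35 with SWCNT, a difference of 4.43 ± 0.20 (21.5-fold, adjusted p = 0.00113), and 1.20 and 1.24 with SWCNT on day 7. Myh7, the beta heavy chain of slow fibres and ventricle, read 2.16 and 2.10 against 1.98 and 2.09, a difference of -0.09 ± 0.10. Sln (sarcolipin), an inhibitor of the calcium pump found in atrium and some skeletal fibres, differed by 1.43 ± 0.15.

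Smooth muscle genes, which belong to normal airways and vessels, had a median difference of 0.56, with 2 of 20 called. Acta2, smooth muscle alpha-actin, read 4.80 and 4.92 against 5.62 and 5.71 (difference 0.80 ± 0.11, adjusted p = 0.0315), and the other call was Des, which all muscle types share. Actg2, enteric smooth muscle actin, differed by 0.79 ± 0.21 and was not called.

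For Acta1 the promoter is shown because its window holds the serum response element, the motif of the muscle regulator SRF. The element, searched by its name on both strands, was in 3 of 30 matched muscle genes called higher (10%) and in 1.63% of all windows. The 250 bases before the start are at chr8:123894776-123895025 (minus strand, GRCm38.p6, RefSeq), with the element in capitals 73 bases before the start.
Acta1: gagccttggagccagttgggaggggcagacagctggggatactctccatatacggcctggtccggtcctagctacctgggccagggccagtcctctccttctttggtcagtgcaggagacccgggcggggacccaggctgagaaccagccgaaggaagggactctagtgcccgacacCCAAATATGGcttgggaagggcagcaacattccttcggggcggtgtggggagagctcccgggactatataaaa

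Squamous epithelium genes rose in a part of their lists. Of 88 members of the 3 lists tested, 9 were higher and 2 lower, with a median difference of 0.32, against 0.934% higher and 1.24% lower among all genes. Of the 9 genes called higher, 7 entered the test only through the SWCNT day 1 arrays, Krtdap, Krt4, Krt13, Mt4, Crct1 and Serpinb12 among them. Such genes had to differ to be tested, so their count and p-values support nothing further. Of the listed squamous genes, 152 were written, 135 measured and 88 tested, 8 of these only through the SWCNT day 1 arrays and 0 only through the PF68 day 1 arrays. In 8 of the 9, both SWCNT arrays were above all 6 others, and in 7 both PF68 values were under the array median. For the 7 genes that entered only through the SWCNT day 1 arrays, both follow from the filter. Both SWCNT day 1 arrays were above all 6 others for 1444 of all 13815 genes. The same held for 65 of the 81 genes called higher outside the 4 families. These counts are no fair measure for the 9. The count was 7 from the day 1 arrays alone and 2 to 4 without any one day 1 array. The genes that rose belong to the upper, differentiating layers. Krtdap, a secreted protein of differentiating keratinocytes, read -3.27 and -5.88 on the PF68 arrays and 2.10 and 1.86 on the SWCNT arrays (difference 6.55 ± 0.84, adjusted p = 0.026), and its size depends on very dim PF68 values. Krt4 and Krt13 are the paired keratins of the wet squamous lining of mouth and oesophagus. Krt4 read -1.21 and -0.74 against 3.71 and 4.14 (difference 4.90 ± 0.35), and Krt13 read -1.36 and -2.31 against 3.25 and 3.10 (difference 5.00 ± 0.79). Mt4, the metallothionein of stratified epithelia, read -2.23 and -2.56 against 2.38 and 2.26 (difference 4.72 ± 0.18, adjusted p = 0.00105). Crct1, a small cornified-envelope protein, differed by 2.81 ± 0.34, and Serpinb12, a protease inhibitor of surface epithelia, by 2.72 ± 0.17.

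Genes of the basal layer, from which that epithelium renews, gave no call upward by limma among 29 tested, with 6 higher at an unadjusted p under 0.05. Krt5, the basal keratin, read -0.69 and 0.11 on the PF68 arrays and 0.27 and -0.09 on the SWCNT arrays, which overlap (difference 0.38 ± 0.61). Trp63, the basal transcription factor p63, read -0.18 and -0.97 against -0.64 and -0.62. Sprr3, an envelope protein of oesophagus, read -0.40 and -0.41 against -0.05 and 0.03 (difference 0.39 ± 0.74, adjusted p = 0.829). None of 5 skin markers was called by limma, with 1 at an unadjusted p under 0.05, and Lor (loricrin), one of them, was uneven between arrays of a group, at -0.22 and 2.32 against 2.61 and 2.54, with a further probe set that differed by 4.53. Sbsn and Dmkn, secreted by keratinocytes and other epithelia, were called at 1.13 ± 0.11 and 0.99 ± 0.12, and on day 7 Sbsn read 1.31 to 1.53, below its SWCNT day 1 values of 1.77 and 1.68. Dmkn read 3.69 or above on every day 7 array, above its SWCNT day 1 values of 3.64 and 3.60. The 2 genes that fell were Krt79, a keratin that is also on the list of alveolar macrophage genes (difference -0.82 ± 0.11), and Dsg2, a desmosomal cadherin of simple epithelia (-0.79 ± 0.11), whose further probe sets differed from -0.96 to 0.45.

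Adipocyte genes were higher in 5 of 29 cases and lower in 0, against 0.934% higher among all genes. Car3, the carbonic anhydrase abundant in fat and slow muscle, read 2.16 and 2.17 on the PF68 arrays and 5.65 and 5.50 on the SWCNT arrays (difference 3.41 ± 0.11, 10.6-fold, adjusted p = 0.000848). On day 7 it was high with PF68, at 4.07 and 4.16, and low with SWCNT, at 1.86 and 1.77. Adipoq, the fat hormone adiponectin, read -0.39 and 0.07 against 2.67 and 2.81 (difference 2.90 ± 0.21), and Fabp4, a lipid carrier of fat, endothelium and macrophages, differed by 1.64 ± 0.12. Pck1, which supplies glycerol for fat storage, differed by 2.0 ± 0.24, and Cox8b, a respiratory subunit of muscle and brown fat, by 1.13 ± 0.17. Cidec, a lipid droplet protein of fat, differed by 1.10 ± 0.24 and was not called.

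**Figure D3:**
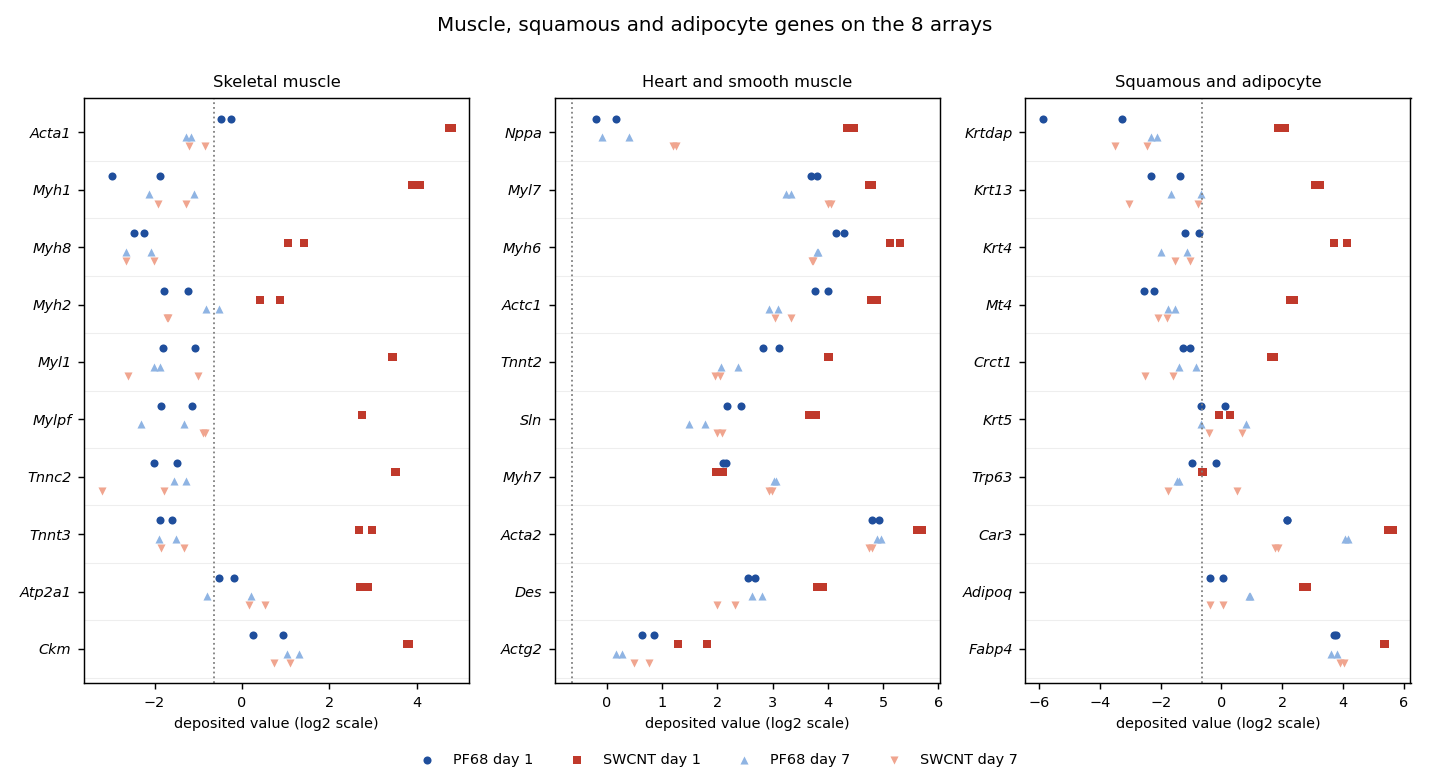
Deposited values (x axis, log2 scale) of muscle, squamous and adipocyte genes on each of the 8 arrays, marker and colour by group, with the array median of -0.628 as a dotted line. The SWCNT day 1 squares stand apart at the right for Acta1, Myh1, Nppa, Krt4 and Mt4, while Myh7, Krt5 and Trp63 show no gap and Car3 is also high in PF68 day 7.

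Mean levels of marker genes of these families are given per array. The SWCNT day 1 group has 2 arrays, so all genes higher in it are high on the same 2. Joint variation of the families cannot be read from that. The mean level of 8 skeletal muscle markers was -0.94 to -0.75 on the PF68 arrays and 2.08 to 2.13 on the SWCNT arrays, and that of 7 oesophageal and oral markers was -1.60 to -1.20 against 0.98 to 1.10. In the latter set Krtdap, Krt13 and Krt4 carried the rise, and Sprr3, Krt5, Krt14 and Trp63 differed by 0.39 or less in size. For 4 white fat markers the levels were -0.60 to -0.53 against 1.06 to 1.07, and for 7 heart markers 2.29 to 2.41 against 3.69 to 3.75. Of the skeletal markers 5 of 8 were under the array median on both PF68 arrays and 1 of 8 on both SWCNT arrays. Other neck tissues are given beside these: by limma none of 3 thymus, 3 thyroid and parathyroid and 4 cartilage markers tested passed (1, 0 and 0 at an unadjusted p under 0.05), and 5 of 8, 3 of 5 and 6 of 11 measured markers were under the median on both SWCNT arrays. The 1 salivary and submucosal gland marker tested was higher at an unadjusted p under 0.05 and not called, and 7 of 7 measured were under the median on both PF68 arrays against 4 of 7 on both SWCNT arrays. Whether these genes came from cells of the lung or from tissue taken along with the lobe was not tested.

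Among the remaining 13408 genes, single genes of several lists rose. Among all genes 0.934% were higher and 1.24% lower. The acute phase list had 1 of 24 higher and 1 lower, and the neutrophil list 2 of 28 higher and 3 lower. The alveolar macrophage list had 1 of 37 higher and 1 lower. That lower gene was Krt79, counted above with the squamous genes and so not among the 13408. Counts this small say little about a list. Timp1, the inhibitor of matrix metalloproteinases induced in injured lung, read 1.83 and 1.75 on the PF68 arrays and 3.84 and 3.65 on the SWCNT arrays (difference 1.96 ± 0.18, 3.88-fold, adjusted p = 0.0096). Saa3, an acute phase apolipoprotein made in the lung, read 3.13 and 3.20 against 4.78 and 4.68 (difference 1.57 ± 0.13). Cxcl5, an epithelial chemokine for neutrophils, read -0.77 and -1.56 against 0.66 and 0.49 (difference 1.74 ± 0.27), from values near the median. Retnla (RELM-alpha), made by macrophages and epithelium in type 2 responses, read 5.70 and 5.52 against 6.77 and 6.73 (difference 1.14 ± 0.11). Tnfsf4 (OX40 ligand), a T cell costimulator, differed by 1.58 ± 0.21, but lay near or below the array median. Ltf (lactoferrin) differed by 1.06 ± 0.16 and Lrg1, a secreted protein of inflammation and vessels, by 0.72 ± 0.10.

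Against 0.934% higher and 1.24% lower among all genes, of 39 chemokine and cytokine genes 2 were higher (Cxcl5 and Tgfb3) and 1 lower, Il6, which read 0.23 and 0.26 against -0.51 and -0.85 (difference -0.92 ± 0.15, adjusted p = 0.0497). None of 29 NF-kappaB feedback and adhesion genes was called by limma, with 9 at an unadjusted p under 0.05. Tnf differed by -0.80 ± 0.45 from dim values and Il1b by 0.02 ± 0.16. The neutrophil genes S100a8 and S100a9, at 7.33 and 7.29 against 7.54 and 7.45 and at 7.19 and 7.19 against 7.03 and 7.11, differed by no more than 0.18 in size. The neutrophil markers Csf3r and Cxcr2 were higher by 0.37 and 1.06, without overlap, as were 24.6% of all genes. Neither was called. Cxcr2 lay below the array median with PF68 and entered the test only through the SWCNT day 1 arrays. Ngp, a granule protein of immature neutrophils, fell from 3.17 and 3.10 to 1.17 and 1.33 (difference -1.88 ± 0.11, adjusted p = 0.00254). Oxidative stress genes of the Nrf2 list were called in 1 of 41 cases, against 2.17% of all genes. In that list the quinone reductase Nqo1 differed by -0.22 ± 0.39, the glutathione synthesis enzyme Gclc by 0.02 ± 0.13 and the heme oxygenase Hmox1 by -0.36 ± 0.14. The genes Nqo1, Gclc, Hmox1, Tnf, Il1b, B2m, H2-K1, Cd74 and Cxcl9 were picked for mention after their values were seen.

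Glycolysis and hypoxia genes were higher in 8 of 34 cases (0 lower), with a median of 0.46, against 0.934% higher among all genes. Pfkl, the liver phosphofructokinase, read 2.84 and 2.97 on the PF68 arrays and 4.41 and 4.56 on the SWCNT arrays (difference 1.59 ± 0.12, 3.0-fold, adjusted p = 0.0054), though its further probe sets ranged from -0.08 to 1.09. Tpi1, triose phosphate isomerase, read 4.0 and 4.08 against 5.32 and 5.40 (difference 1.32 ± 0.11), and Aldoa, the aldolase of muscle and most tissues, differed by 1.16 ± 0.11. Ldha, lactate dehydrogenase A, differed by 0.73 ± 0.10 on day 1 and by 0.78 on day 7. Muscle is rich in several of these enzymes, and the part of the muscle genes in their rise was not tested. None of 37 mitochondrial respiration genes was called by limma, with 5 at an unadjusted p under 0.05. The same held for 27 p53 and cell death genes, with 10 at an unadjusted p under 0.05.

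Airway and xenobiotic genes moved both ways. Bpifa1 (SPLUNC1), a secreted defence protein of upper airways, read 4.2 and 4.34 against 6.13 and 6.2 (difference 1.90 ± 0.13, 3.72-fold, adjusted p = 0.00476). Muc5b, the mucin of submucosal glands and club cells, read 2.11 and 2.13 against 3.21 and 3.31. The club cell marker Scgb1a1 was at the top of the scale on both PF68 arrays, so no difference can be read from it. Cyp2f2, a club cell cytochrome, was lower at 7.00 and 6.97 against 6.37 and 6.42 (difference -0.59 ± 0.10, adjusted p = 0.0497). Cyp2e1, a cytochrome of liver, fat and airway, had the largest called rise outside the 4 families, from 1.44 and 1.43 to 4.18 and 4.10 (difference 2.71 ± 0.13, adjusted p = 0.00113). Its day 7 order was the opposite, at 2.06 and 2.28 with PF68 and 0.67 and 0.51 with SWCNT, as it was for Car3 and Bpifa1. Cyp1a1, the standard target of the aryl hydrocarbon receptor, read 1.76 and 1.77 against -0.16 and 0.15 (difference -1.76 ± 0.14, adjusted p = 0.00745). Aldh1a7, an aldehyde dehydrogenase, differed by -0.73 ± 0.10, and Gstm1, a glutathione transferase, by 0.71 ± 0.11, although its further probe sets ranged from -0.24 to 0.29.

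Matrix genes were higher in 5 of 55 cases, Timp1 among them, against 0.934% of all genes. Col1a1, the main fibrillar collagen, read 2.88 and 2.97 against 3.76 and 3.55 (difference 0.74 ± 0.12, adjusted p = 0.0485), and Dcn (decorin), a collagen-binding proteoglycan, differed by 0.87 ± 0.12. Tgfb3, a growth factor of tissue repair, read 1.13 and 1.12 against 2.37 and 2.43 (difference 1.27 ± 0.14). Of the genes named here, Col1a1, Dcn, Lrg1, Ldha, Gstm1, Nr1d1, Tnnc1, Tnnt2 and Cox8b were no longer called after scaling to the hybridization spikes. Other large rises belonged to no list. Tmem213, a small membrane protein, read -0.40 and -0.16 against 2.19 and 2.14 (difference 2.44 ± 0.15) and was higher with SWCNT on day 7 too, by 1.64. Gp2, a bacterial receptor of specialised epithelial cells, differed by 1.82 ± 0.28 on day 1 and 2.88 on day 7. Ada, adenosine deaminase, an enzyme abundant in upper digestive tract lining, read -0.13 and 0.24 against 2.36 and 2.61 (difference 2.43 ± 0.41). Penk, the enkephalin precursor, rose from dim values by 2.03 ± 0.29. Hspa1a, an inducible heat shock chaperone, was the 1 call of 35 heat shock genes, at 1.15 ± 0.14, against 2.17% of all genes called.

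Some lymphocyte and antigen-presentation genes were among the falls, against 1.24% lower and 0.934% higher among all genes. Of 33 T and NK cell genes 2 were lower, and of 16 MHC class II genes 3. Of 18 B and plasma cell genes 1 was lower and 1 higher. H2-Eb1 and H2-Aa, chains of the MHC class II molecules, read 4.38 and 4.54 against 2.65 and 2.62 (difference -1.82 ± 0.15, adjusted p = 0.00759) and 5.46 and 5.56 against 3.94 and 3.67 (-1.70 ± 0.18). The invariant chain Cd74 differed by -0.56 ± 0.10 and was not called (adjusted p = 0.0572). Ctss, the protease that trims it, read 6.31 and 6.30 against 4.99 and 5.05 (difference -1.29 ± 0.10) and was higher with SWCNT on day 7, by 1.07. Cd3d, a subunit of the T cell receptor complex, read 1.24 and 1.46 against -0.39 and -0.12 (difference -1.61 ± 0.18). Gzma, a granule protease of cytotoxic cells, differed by -1.07 ± 0.12. Ms4a4b, a T cell membrane protein, differed by -1.64 ± 0.13, and Spn (CD43), a sialoprotein of leukocytes, by -1.68 ± 0.19, with a further probe set at -0.08.

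Immediate early genes fell in 2 of 27 cases, against 1.24% of all genes. Nr4a1 (Nur77), a nuclear receptor induced within minutes of a stimulus, read 3.41 and 3.30 against 1.56 and 1.30 (difference -1.93 ± 0.20, 3.80-fold, adjusted p = 0.0141). Its relative Nr4a2 differed by -1.69 ± 0.21, with further probe sets from -1.09 to 0.53, and Csrnp1, a nuclear factor of the same early class on no list here, by -1.75 ± 0.21. Fos, the commonest member of that class, differed by -0.62 ± 0.17 and was not called (adjusted p = 0.142).

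Blood genes were lower in 4 of 15 cases, against 1.24% of all genes. Slc4a1 (band 3), the anion exchanger of red cells, read 2.35 and 2.19 against 0.25 and 0.02 (difference -2.13 ± 0.21, 4.38-fold, adjusted p = 0.0119). The platelet genes Ppbp, Gp1bb and Tubb1, which encode a stored chemokine, a receptor for von Willebrand factor and the platelet tubulin, differed by -0.81 ± 0.12, -0.88 ± 0.13 and -0.79 ± 0.12. Among single genes, Wif1, a secreted Wnt inhibitor of the lung mesenchyme and epithelium, read 2.18 and 1.73 against 0.32 and 0.32. Lrat, the enzyme that stores vitamin A, differed by -1.68 ± 0.23, and C2, a complement protease, by -1.21 ± 0.14. Lpcat1, which builds surfactant lipid in alveolar type 2 cells, was the 1 call of 29 alveolar genes, at -0.78 ± 0.11. Cdc20, an activator of mitotic exit, was lower by 1.07 and was the 1 call of 33 mitosis genes. Dbp and Nr1d1, clock output genes that cycle over the day, differed by -0.99 ± 0.14 and 0.98 ± 0.14, and the hour of collection was not given in the sources used here. Mapre2, a microtubule-end protein, read 4.0 and 3.94 against 2.23 and 2.13, but its 3 further probe sets differed by only -0.11 to 0.29. Of 120 called genes with further passing probe sets, 33 had at least 1 of opposite sign.

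**Figure D4:**
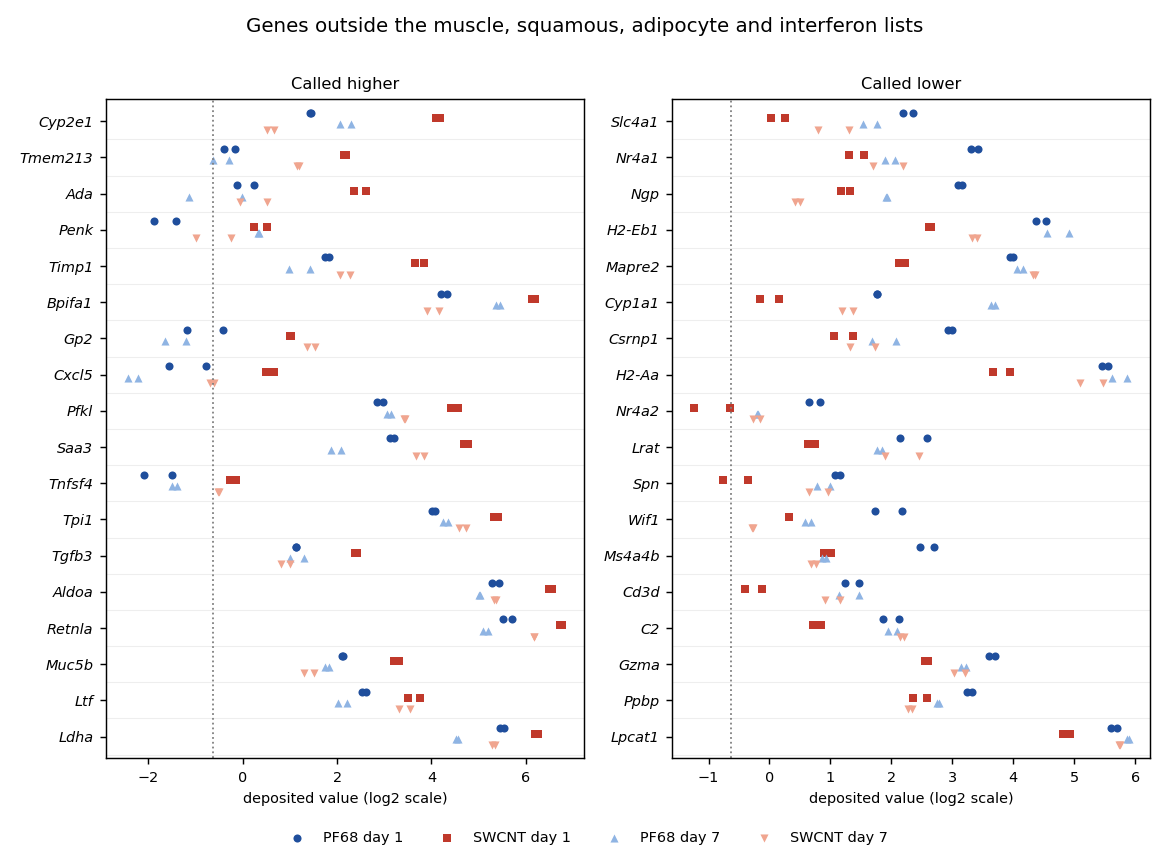
Deposited values (x axis, log2 scale) of called genes outside the 4 families on each of the 8 arrays, marker and colour by group, with the array median of -0.628 as a dotted line. Cyp2e1, Tmem213 and Bpifa1 are highest on the SWCNT day 1 arrays at left, Ngp and Ms4a4b highest on the PF68 day 1 arrays at right, and Cyp1a1 is higher in PF68 than SWCNT on both days.

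Some of these differences were also present on day 7, where the PF68 arrays were separate ones. Of the 300 genes called on day 1, 40 were called on day 7 (13.3% of the day 1 calls and 12.6% of the 317 day 7 calls, with 2.29% of all genes called on day 7). In 27 the direction was the same and in 13 it was opposite. The shared rises included Saa3 (1.78 on day 7), Retnla (1.03), Ltf (1.32), Lrg1 (1.78), Cxcl5 (1.67) and Col1a1 (0.73). The shared falls included Cyp1a1 (-2.39), Ngp (-1.47), H2-Eb1 (-1.37), Aldh1a7 (-0.71) and Gp1bb (-0.88). By family, the calls on both days with the same direction numbered 2 of the 35 muscle genes, 0 of the 9 squamous genes that rose, 2 of the 56 interferon genes and 23 of the 194 other genes.

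**Figure D5:**
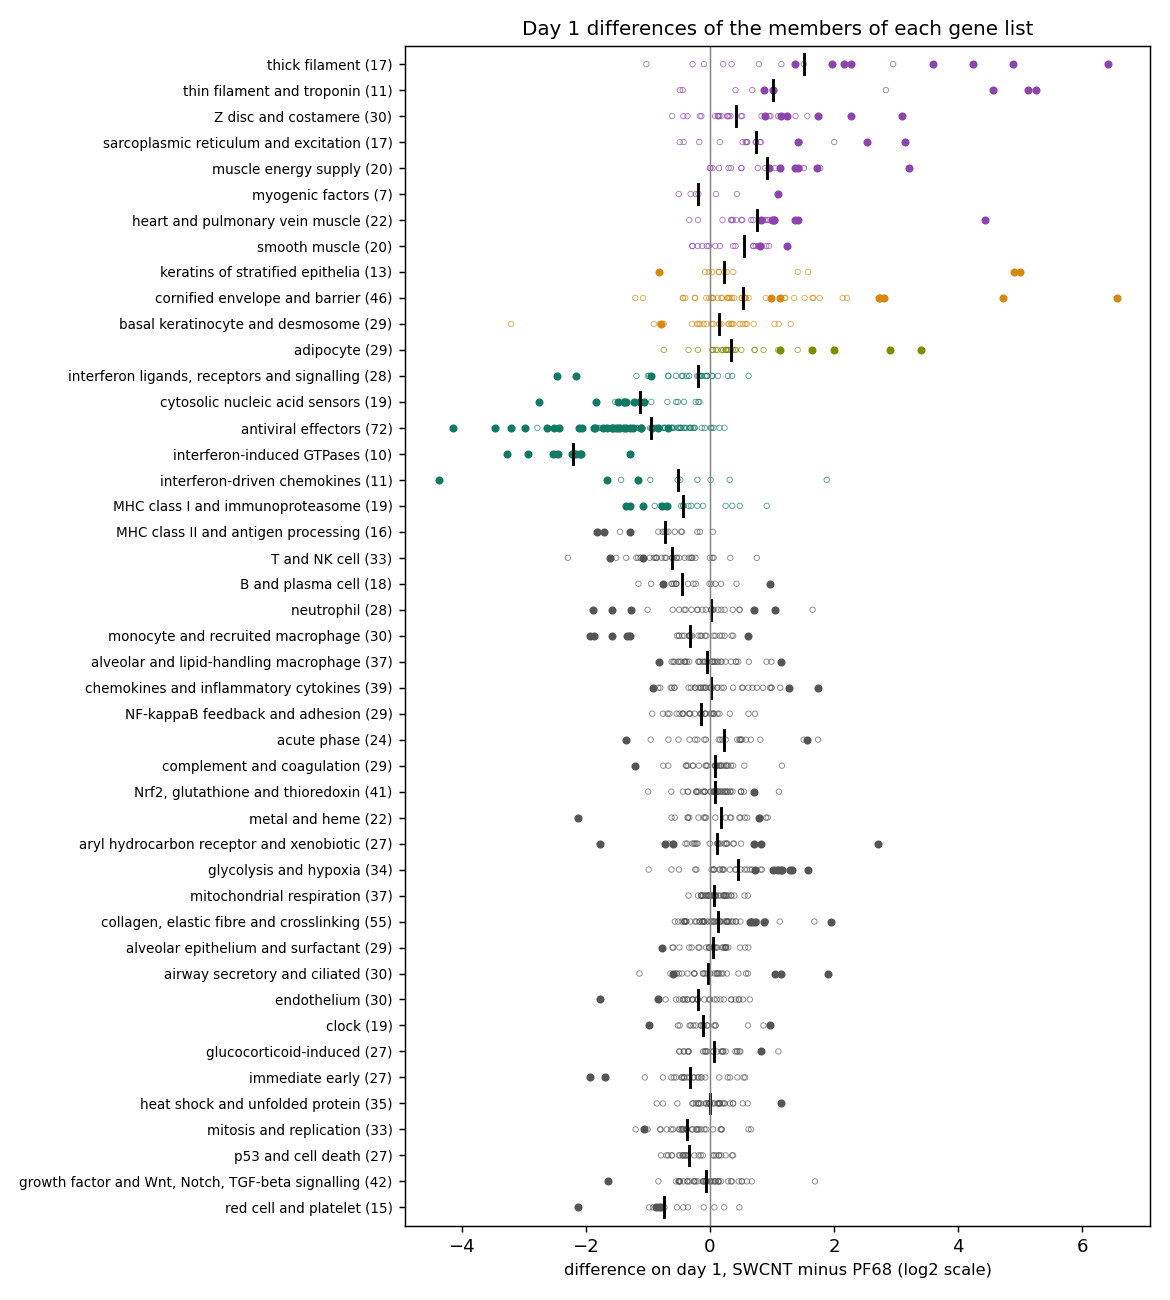
Day 1 difference, SWCNT minus PF68 (x axis, log2 scale), of every tested member of each gene list (y axis, number of members in brackets); filled points were called, open points were not, and the black bar is the list's median. Thick-filament genes lie to the right (median 1.51), the interferon-induced GTPases to the left (median -2.21), and lists such as mitochondrial respiration stay close to 0.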

How the data were processed

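Total RNA of 8 lung samples was measured on Affymetrix mouse arrays. The deposited log2 values were made by the authors with RMA, per the submitters' processing notes, which give no version. No source states the log base or the offset behind the array median of -0.628, and base 2 is assumed. Of 45101 probe sets, 64 controls and 8 with a missing value were left out; platform annotation gave 1 symbol to 34939, several to 931 and listed none for 9159. Symbols were updated through RefSeq (34735 matched).

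The 4 group means were fitted with limma (version 3.58.1, R 4.3.3), lmFit and eBayes, over 8 arrays with 4 residual degrees of freedom, and p-values were adjusted by Benjamini-Hochberg over the 13815 genes tested. The genes named are, of each list, up to 8 called and up to 4 uncalled members with the largest differences; the 20 largest rises and 20 largest falls called outside the 4 families, and the 12 largest of each among all called genes, leaving out predicted genes, immunoglobulin segments and pseudogenes; interferon ligands, receptors and factors; marker genes; and actins, myosin heavy chains and troponins; 9 further genes are named in the report as picked after their values were seen. The members and lists were chosen with earlier results of these data known. Promoters came from RefSeq (GRCm38.p6). The alternatives are given with the closing observations.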

Additional observations from a re-analysis of the deposited data

Results flagged for a closer look

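The effect of SWCNT against PF68 differed between day 1 and day 7 for 77 of the genes described, by the interaction term of the limma fit at an adjusted p under 0.05 over all 13815 genes; the same term was called for 334 genes in all (2.42%). The days have separate PF68 arrays, and day and collection cannot be told apart. Values are the day 7 effect minus the day 1 effect on the log2 scale, so a positive value means that SWCNT lungs stood higher relative to PF68 on day 7. No explanation was tested. Most genes described were chosen by their day 1 difference, which this term contains. The count of 77 therefore supports nothing further. Myh1, Myh8, Myl1, Mylpf, Tnnc2, Tnnt3, Pvalb, Krtdap, Mt4, Krt4, Crct1 and Serpinb12 entered the test only through the SWCNT day 1 arrays. Cxcl10 entered only through the PF68 day 1 arrays. These genes had to lie below the array median on every day 7 array, so their values follow in part from the filter.

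Among interferon genes the larger positive values were 4.98 for Cxcl10, 4.13 for Ifit1, 3.47 for Gbp6, 3.17 for Irgm2, 3.16 for Ifit2, 3.05 for Igtp, 2.98 for Ifit3 and 2.76 for Cmpk2. Among interferon genes the next positive values were 2.75 for Dhx58, 2.60 for Gbp2, 2.46 for Irgm1, 2.37 for Iigp1, 2.17 for Nlrc5, 2.16 for Usp18, 2.16 for Ccl8 and 2.15 for Irf7. Among interferon genes the next positive values were 1.94 for Ifih1, 1.80 for Rsad2, 1.77 for Zbp1, 1.41 for Bst2, 1.37 for Psmb8, 1.36 for Tap1, 1.29 for Psmb9 and 1.24 for Ifnar2. Among muscle genes the larger negative values were -6.40 for Myh1, -6.33 for Tnnc2, -4.94 for Acta1, -4.75 for Myl1, -4.44 for Tnnt3, -3.55 for Myh8, -3.46 for Ckm and -3.36 for Nppa. Among muscle genes the next negative values were -3.28 for Mylpf, -3.20 for Myh2, -2.34 for Pvalb, -1.82 for Eno3, -1.81 for Des, -1.16 for Tnnc1, -1.10 for Myh6 and -0.95 for Acta2. Among squamous genes the positive values were 1.30 for Krt79 and 1.29 for Dsg2. Among squamous genes the negative values were -7.30 for Krtdap, -5.02 for Mt4, -4.63 for Krt4, -3.75 for Crct1, -2.48 for Serpinb12, -1.29 for Sbsn and -1.21 for Dmkn. Among adipocyte genes the negative values were -5.71 for Car3, -3.97 for Adipoq, -3.23 for Pck1 and -1.38 for Fabp4. Among the other genes the larger positive values were 3.45 for Pcdhb13, 2.35 for Ctss, 2.05 for Lrat, 2.02 for Mapre2, 1.90 for Nr4a1, 1.84 for Fos, 1.66 for Cdc20 and 1.46 for Ms4a4b. Among the other genes the next positive values were 1.37 for C2, 1.06 for Lrg1 and 1.01 for Gzma. Among the other genes the larger negative values were -4.28 for Cyp2e1, -3.28 for Bpifa1, -2.98 for Penk, -2.33 for Cytl1, -2.29 for Azgp1, -1.63 for Nr1d1, -1.53 for Muc5b and -1.52 for Tgfb3. Among the other genes the next negative values were -1.50 for Gstm1, -1.34 for S100a8, -1.25 for Pfkl, -1.01 for S100a9 and -0.96 for Tpi1.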

How the results depend on the processing

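The number of genes called on day 1 was 300 as reported (129 higher, 171 lower), and no called gene named in the text changed sign under any alternative run. Most alternatives could not change a sign. Other median filters, thresholds, spread models, the replicate block and a left-out day 7 array leave the day 1 difference as it is. Leaving out a day 1 array cannot reverse a gene whose groups do not overlap. The unchanged signs therefore support little. Differences near 0 of genes that were not called did change sign under at least 1 alternative, for Irf3, Actb, Krt5, Trp63, Il1b, Nqo1, Gclc and S100a8. Without the filter on dim probe sets, 123 genes were called (51 higher, 72 lower). In that setting 37 interferon, 18 muscle and 58 genes outside the 4 families were called, and 32 of the named genes differed between the days, in place of 77. Requiring 4 arrays at the median left 3 squamous genes, and requiring a mean at the median gave 307 genes outside the families. Averaging probe sets gave 193 genes, 97 of them lower and 102 outside the families. From the 4 day 1 arrays alone 58 genes were called (31 higher, 27 lower), with 21 interferon, 11 muscle and 16 outside genes. Empirical Bayes with trend and robust settings gave 1253 genes (535 higher, 718 lower), with 88 interferon, 55 muscle, 18 squamous and 1075 outside genes. Array weights gave 297 outside genes. Scaling to the hybridization spikes gave 612 genes, 521 of them lower and 488 outside the families. Requiring a difference of at least 1 as well gave 195 genes, 108 lower and 103 outside.

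Leaving out any one day 1 array gave 30 to 35 genes (9 to 18 higher, 17 to 22 lower), and leaving out any one day 7 array gave 135 to 189 (61 to 78 higher, 74 to 111 lower). Over all 8 such fits the interferon count ran from 13 to 49, the muscle count from 3 to 26, the squamous count from 2 to 8, the outside count from 7 to 103 and the count of named genes differing between the days from 9 to 33. In these fits the lone array was assumed to vary like the other groups. Fewer residual degrees of freedom follow from the construction of these fits; no other cause was tested.

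With the replicate number as a block, 102 genes were called (43 higher, 59 lower), with 35 interferon, 16 muscle, 5 squamous and 43 outside genes, and 20 named genes differing between the days. Deviations of same-numbered arrays correlated at -0.00485 to 0.0108 over 6 pairs of groups, so the arrays share only a number.

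The number of arrays, 2 per group, limits the precision, and genes near the array median have a signal close to background.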
